A study of Homo sapiens with 1 sample.

Results

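The miRNAs described here are the 10 mature arms named for a pair of paralogous miRNA clusters, the miR-106b-25 cluster and the miR-106a-363 cluster, as measured on 1 miRNA array of DLD-1 cells. The members were chosen by name: every spot of the scanner output that was not a control and whose systematic name was that of a listed arm. Of the 10 listed arms, 9 were analysed out of the 2549 human miRNAs measured: 6 of the miR-106b-25 cluster (both arms of miR-106b, miR-93 and miR-25) and 3 of the miR-106a-363 cluster (miR-18b-5p, miR-20b-5p and miR-363-3p). No spot carried the name of the tenth, miR-106a-5p, which was not analysed here. DLD-1 is a human colorectal carcinoma line of epithelial origin, and the cells had been transfected with the plasmid pLVX-NC, a negative control that the methods describe as empty. The array of cells overexpressing circLONP2 was not analysed here. The single array has no replicate. Unless given as an SE, each ± below is an SD over the spots of this array, it holds none of the variation between cultures, and no test was made.

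Both clusters arose by duplication from the same ancestor as the miR-17-92 cluster. Each is transcribed as a long primary transcript, from which hairpins are cut and trimmed to short duplexes. The guide strand of a duplex is loaded into an Argonaute protein, and the other strand, the passenger, is mostly degraded. The guide finds its target messages mainly through its seed, the bases near its 5′ end. The miR-106b-25 hairpins lie within MCM7, which encodes a subunit of the replicative helicase and is switched on by E2F factors as cells enter S phase. Members with the miR-17 seed are known to repress the cell cycle inhibitor p21, and miR-25 is known to repress the pro-apoptotic protein BIM. The cluster is often raised in tumors of the digestive tract. The miR-106a-363 cluster is known for expression in embryonic stem cells and is low in most adult tissues.

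The sequences show why the clusters are treated as relatives and which arms differ. They were taken from RefSeq (GRCh38.p14), in which all 10 members were matched, and are written 5′ to 3′ with the seed, bases 2 to 8, in capitals. The first 6 belong to the miR-106b-25 cluster, the next 4 to the miR-106a-363 cluster, and the last 3 are relatives from the miR-17-92 cluster.
hsa-miR-106b-5p: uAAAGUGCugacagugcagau
hsa-miR-106b-3p: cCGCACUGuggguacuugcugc
hsa-miR-93-5p: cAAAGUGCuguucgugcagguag
hsa-miR-93-3p: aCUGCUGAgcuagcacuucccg
hsa-miR-25-5p: aGGCGGAGacuugggcaauug
hsa-miR-25-3p: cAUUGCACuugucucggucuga
hsa-miR-106a-5p: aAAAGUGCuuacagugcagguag
hsa-miR-18b-5p: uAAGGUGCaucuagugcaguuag
hsa-miR-20b-5p: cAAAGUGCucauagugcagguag
hsa-miR-363-3p: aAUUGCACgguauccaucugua
hsa-miR-17-5p: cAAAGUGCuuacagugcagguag
hsa-miR-92a-3p: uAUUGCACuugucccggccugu
hsa-miR-18a-5p: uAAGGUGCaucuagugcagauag

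The miR-17 seed AAAGUGC was shared by miR-106b-5p, miR-93-5p, miR-106a-5p, miR-20b-5p and miR-17-5p. Counted from 1 at the 5′ end and with the base of miR-17-5p first, miR-106a-5p differed from miR-17-5p by C1A alone. miR-20b-5p differed by U10C and C12U. miR-93-5p differed by 4 substitutions, U10G, A11U, C12U and A13C, and miR-106b-5p by 3 over its 21 bases, C1U, U10G and G20A. The miR-25/92 seed AUUGCAC was shared by miR-25-3p, miR-363-3p and miR-92a-3p. Outside this seed miR-25-3p stayed close to miR-92a-3p, with 4 differences over 22 bases, whereas miR-25-3p and miR-363-3p differed at 13 of 22. miR-18b-5p held the seed AAGGUGC and differed from miR-18a-5p at 1 base, A20U. The remaining arms, miR-106b-3p, miR-93-3p and miR-25-5p, each had a seed that no other human miRNA in the table carried. G and C made up 42.9% to 63.6% of the bases of the miR-106b-25 arms and 40.9% to 47.8% of the miR-106a-363 members.

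The 3 hairpins of the miR-106b-25 cluster lay on the minus strand of chromosome 7 within 515 bases, in the order MIR106B, MIR93 and MIR25, inside the gene body of MCM7 (chr7:100092728-100101397, GRCh38.p14, minus strand). In the direction of transcription, MIR93 began 227 bases and MIR25 began 431 bases after the start of MIR106B. miR-93-5p mapped to chr7:100093815-100093837 and miR-25-3p to chr7:100093571-100093592. The 6 hairpins of the miR-106a-363 cluster lay on the minus strand of the X chromosome within 901 bases, inside MIR106AHG (chrX:134169150-134174088), its host transcript. miR-20b-5p mapped to chrX:134169850-134169872 and miR-363-3p to chrX:134169382-134169403. Whether these positions are exonic or intronic was not given by the table used.

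Each miRNA was measured by 20 spots, divided over 2 to 4 probes for the members. Of the 180 member spots, 2 were marked as outliers by the software and left out. The brightness is in scanner units after subtraction of the local background, which lay between 11 and 14 around the member spots, so that a dim spot can fall below 0. Below, log2 brightness means the log2 of this value, with anything below 1 set to 1, as a mean over spots and then over probes. It is relative to a reference brightness of 248.8, the 75th percentile over probes of detected miRNAs. No spot was saturated. The median SD between spots was 0.147 (log2) over 3263 probes of detected miRNAs. Of 7 epithelial miRNAs used to check the label, 5 were detected, against 56.8% of all human miRNAs measured. miR-141-3p had a total signal of 1112, and the other detected ones lay between 12.8 and 29.9. miR-192-5p and miR-194-5p, which mark intestinal epithelium, were not detected. Of 9 miRNAs of blood, endothelial, smooth muscle, liver, muscle and neural cells, which the culture should lack, 5 were detected as well. This was about the share of all miRNAs, and their total signals reached 28.4. Apart from miR-141-3p, the total signals of the epithelial list and of this list overlapped. The total signal is the software's sum over the probes it counted for a miRNA, from which dim probes can be missing, and its median over all detected miRNAs was 23.1.

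The miR-106b-25 cluster gave signal at every hairpin, and the miR-106a-363 members were at or near background. The software's flag called 6 of the 9 analysed members detected, against 56.8% of all human miRNAs measured. They were 5 of the 6 miR-106b-25 arms and 1 of the 3 miR-106a-363 members, miR-20b-5p. A stricter count required a probe whose spots were well above background in a share of 0.5 or more and whose mean was at least 2-fold over 12.5. This negative control level is the 99th percentile among the 1000 negative controls. Without the brightest of the 7 control probes it was 5.58. The stricter criterion was met by 44.6% of all human miRNAs, by 4 of the 6 miR-106b-25 arms (miR-93-5p, miR-25-3p, miR-106b-5p and miR-106b-3p) and by 0 of the 3 miR-106a-363 members. Over both clusters the 4 of 9 that met it were thus about the same share as in the background, and it was their division between the clusters that was uneven. Well above background were 78 of the 118 spots used of the miR-106b-25 arms (66.1%), but 1 of the 60 spots of the miR-106a-363 members (1.67%). Over all miRNA spots used on the array this share was 44.98%, between the shares of the clusters. Of the detected members, miR-93-5p and miR-25-3p had total signals above 28.4, the highest among the miRNAs that the culture should lack, and the other 4 lay below it. How far this bears on the dim members was not tested. Spots repeat the same RNA on the same array, so these shares carry no interval.

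**Figure D1:**
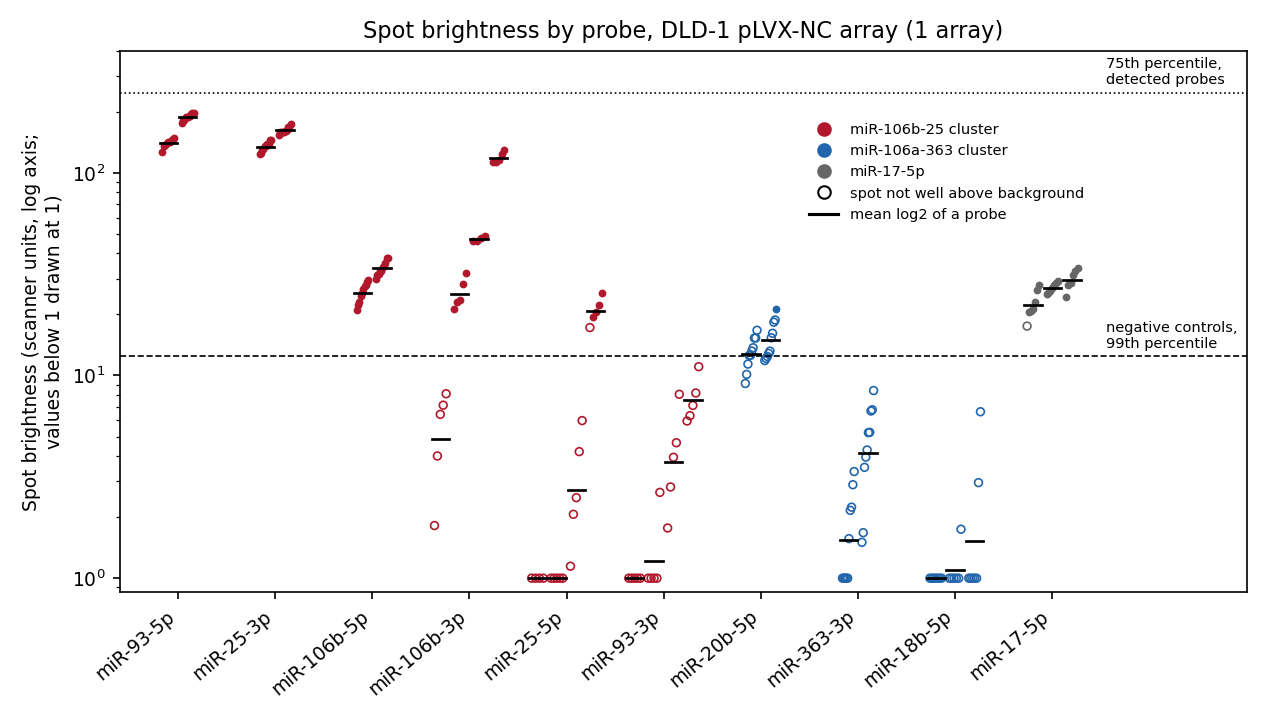
Brightness of each spot used, in scanner units on a log axis, for the 9 members and miR-17-5p on the DLD-1 pLVX-NC array. Each column of points is 1 probe, the bars are the mean log2 brightness of a probe, open circles are spots not well above background, and values below 1 are drawn at 1. The spots of miR-93-5p and miR-25-3p lie between 124 and 198, those of miR-106b-5p and miR-17-5p between 17.5 and 37.8, and those of miR-363-3p and miR-18b-5p under the negative control level of 12.5.

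Among the guide arms of the MCM7-hosted cluster, miR-93-5p was the brightest. Its 20 spots ran from 126 to 198 with a median of 162, and their mean was 164 ± 25.5 (SD over 20 spots). All 20 were well above background. The spread came mostly from its probes, which read 140 ± 6.28 and 189 ± 6.89 (10 spots each). On the log2 scale they differed by 0.43 ± 0.03 (SE over spots). The brighter probe lay 15.1-fold above the negative control level, and the log2 brightness was -0.61. The total signal of 60.5 placed miR-93-5p at rank 419 of the 1448 detected miRNAs.

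miR-25-3p, the guide arm of the last hairpin, was nearly as bright, with spots from 124 to 175. Their median was 149 and their mean 149 ± 15.5 (SD over 20 spots). All 20 spots were well above background, and its probes read 135 ± 7.27 and 162 ± 6.14 (SD over 10 spots each). The log2 brightness was -0.75 and the total signal 54.6, rank 443 of 1448. The spots of miR-93-5p and miR-25-3p overlapped, and their log2 brightness differed by 0.14, less than the spot SD of 0.23 of miR-93-5p. For both, the error that the software gives each spot, with medians of 16.6 and 15.4, was larger than the SD between spots of a probe.

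miR-106b-5p, the guide arm of the first hairpin, was dimmer than its neighbors, with spots from 21.1 to 37.8. Their median was 29.8, their mean 29.8 ± 4.99 (SD over 20 spots), and none of them reached the lowest spot of miR-25-3p. All 20 spots were nonetheless well above background, and its probes, at 25.8 ± 2.91 and 33.9 ± 2.65, were 0.40 ± 0.06 apart (log2, SE over spots). The log2 brightness of -3.08 was 2.33 below that of miR-25-3p, and the total signal ranked 990 of 1448. The guide arms of 1 primary transcript thus differed in brightness several-fold. Probes of different sequence bind with different strength, so the order of 2 miRNAs on the array is an order of brightness and not of the amount of RNA.

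The passenger arms varied widely between probes. miR-106b-3p was detected with spots from 1.82 to 129 and a median of 32.0, and 14 of its 19 spots used were well above background. Its 4 probes ran from 5.50 ± 2.56 to 119 ± 7.39 (SD over 5 spots each). The dimmest had no spot well above background and lay under the negative control level, whereas all spots used of the other 3 probes were well above background. The brightest probe gave 10.9 of the total signal of 17.6, which was larger than that of miR-106b-5p, and the log2 brightness was -3.11 as a mean over probes and -1.07 by the brightest probe. Which of the arms of miR-106b was the brighter therefore depended on how the probes were summarized.

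miR-25-5p was called detected on the strength of 1 of its 4 probes. Its spots ran from -4.54 to 25.6 with a median of 1.15, and 4 of 19 were well above background, all from the probe that read 21.0 ± 3.17 (SD over 5 spots). The dimmest probe read -1.48 ± 1.47 (SD over 4 spots). That brightest probe lay 1.68-fold above the negative control level, under the 2-fold margin, and supplied all of the total signal of 1.93, rank 1424 of 1448. miR-93-3p was the only miR-106b-25 arm that was not detected. Its spots ran from -2.82 to 11.1 with a median of 2.21, none was well above background, and its brightest probe read 7.73 ± 2.04 (SD over 5 spots). Positive and significant over the local background were 8 of its 20 spots, among them all 5 of that probe. At miR-93 and miR-25 the known guide arm was bright and the other arm at or near background, whereas at miR-106b both arms met the 2-fold margin over the negative control level.

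Of the miR-106a-363 members, miR-20b-5p, which carries the miR-17 seed, was the only one detected. Its spots ran from 9.13 to 21.2 with a median of 13.2 and a mean of 14.1 ± 3.02 (SD over 20 spots). All 20 were positive and significant over the local background, but 1 was well above it, and the median spot was close to the negative control level of 12.5. Every spot was above 5.58, the level without the brightest control probe. The brighter of its probes read 15.2 ± 3.30 (SD over 10 spots). The log2 brightness was -4.17 and the total signal 5.19, rank 1255. Neither probe had a share of 0.5 of its spots well above background, so miR-20b-5p was not counted as detected under that criterion.

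miR-363-3p, which carries the seed of miR-25-3p, was not detected. Spots ran from -1.50 to 8.43 with a median of 2.57, none was well above background, and its probes read 1.15 ± 1.57 and 4.73 ± 2.22 (SD over 10 spots each). Positive and significant over the local background were 7 of its 20 spots, all from the brighter probe. miR-18b-5p was not detected either, with spots from -5.11 to 6.63, a median of -1.93 and 1 spot of 20 positive and significant. The highest spots of miR-363-3p and miR-18b-5p were under the negative control level, so their values are bounds on a signal and their order has no meaning. That level rested on the brightest control probe. Without it the level was 5.58, and the highest spots of both miRNAs were above that.

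miR-17-5p, the seed relative from the miR-17-92 cluster, was about as bright as miR-106b-5p. Spot values ran from 17.5 to 33.9 with a median of 26.6 and a mean of 26.3 ± 4.18 (SD over 20 spots), and 19 of 20 were well above background. The log2 brightness was -3.25 and the total signal 9.67, rank 1035. Every spot of miR-93-5p was brighter than every spot of miR-17-5p. The spots of miR-106b-5p, from 21.1 to 37.8, overlapped those of miR-17-5p, and the brightest spots of miR-20b-5p reached above its dimmest. From brightest to dimmest, the detected members and miR-17-5p followed in the order miR-93-5p, miR-25-3p, miR-106b-5p, miR-106b-3p, miR-17-5p, miR-20b-5p and miR-25-5p. The 3 undetected members, miR-363-3p, miR-93-3p and miR-18b-5p, have no order. Of the neighbors in this order, miR-25-3p and miR-106b-5p were the only pair whose spots did not overlap.

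The median log2 brightness was -3.09 over the 6 miR-106b-25 arms, with a range of -6.68 to -0.61, and -6.62 over the 3 analysed miR-106a-363 members, with a range of -7.71 to -4.17. The latter median is the value of miR-363-3p, which had no spot well above background, so the difference of 3.52 between the medians is taken against a background value and describes no measured ratio. Its size also depended on the processing: it was 0.61 after the normexp background correction with an offset of 50, 1.13 on the authors' values, and 5.87 when the known guide arms alone were compared. The missing miR-106a-5p enters none of these values.

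**Figure D2:**
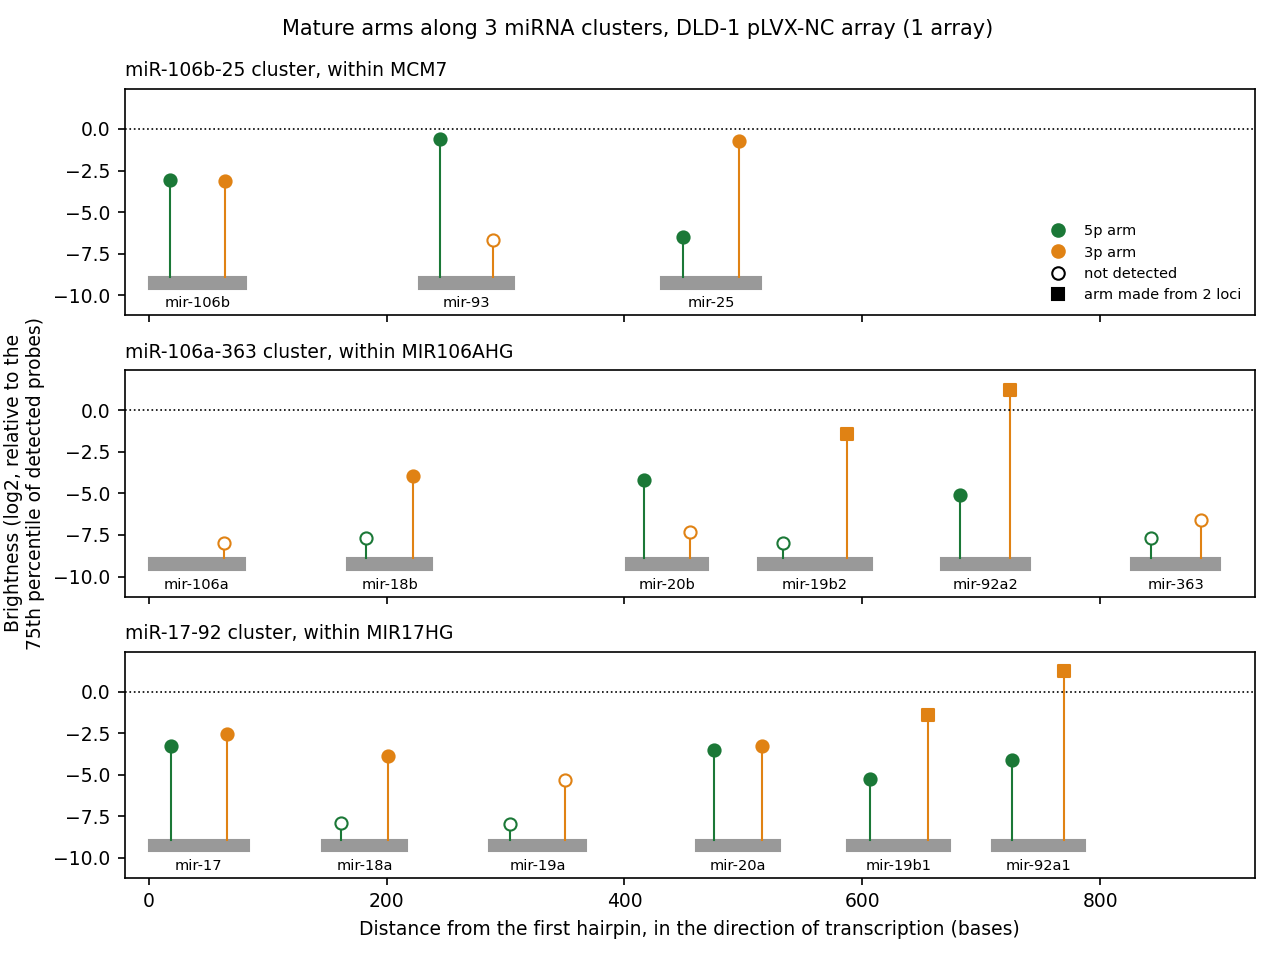
Log2 brightness of the analysed arms of 3 clusters, the dotted line at 0 being the 75th percentile over detected probes, against the distance in bases from the first hairpin in the direction of transcription. Grey boxes are hairpins to scale, points stand schematically at the 5p and 3p side of each hairpin, and squares are arms that 2 loci produce, drawn at both. In the miR-106b-25 cluster 5 of 6 arms are filled (detected), and of the arms found only in the miR-106a-363 cluster 3 of 9 are.

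The arms of the miR-106a-363 hairpins outside the member list were read for comparison. Of these 6, 2 were detected. miR-18b-3p had spots from 10.4 to 21.8 with a mean of 16.7 ± 3.44 (SD over 20 spots), of which 7 were well above background, and a total signal of 6.15. miR-92a-2-5p owed its call to 1 of 4 probes, which read 61.2 ± 26.9 (SD over 5 spots), and its total signal was 5.63. All spots of that probe were well above background, and its mean lay 4.90-fold above the negative control level. miR-92a-2-5p therefore met the stricter criterion, which none of the analysed miR-106a-363 members met. miR-106a-3p, miR-20b-3p, miR-19b-2-5p and miR-363-5p were not detected. Arms found only in the miR-106a-363 cluster were thus detected in 3 of 9 cases, below the 56.8% of all miRNAs, and arms of the miR-106b-25 cluster in 5 of 6. The cluster also encodes miR-19b-3p and miR-92a-3p, which read 94.2 ± 13.9 and 586 ± 72.6 (SD over 20 spots each). The same mature sequences come from the miR-17-92 cluster on chromosome 13, and the share of either locus cannot be told apart.

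Grouped by seed, members stood beside relatives from other loci. All 7 analysed miRNAs with the seed AAAGUGC were detected, out of 8 in the table, against 56.8% of all human miRNAs measured. After miR-93-5p and miR-106b-5p came miR-17-5p, then miR-20a-5p at a log2 brightness of -3.49. miR-20b-5p, at -4.17, could not be separated from miR-526b-3p and miR-519d-3p, at -4.08 and -4.21, which belong to a large cluster known for expression in placenta. Their total signals were 5.19, 5.48 and 5.19, with a single spot of 20 well above background for each. Of the 6 miRNAs with the seed AUUGCAC, 4 were detected, not far from the 56.8% of all miRNAs. miR-92a-3p was the brightest at 1.22, ahead of miR-25-3p, while miR-363-3p and miR-32-5p were not detected. miR-367-3p, known from embryonic stem cells, was detected with a log2 brightness of -1.99 and a total signal of 23.7. None of the 3 miRNAs with the seed AAGGUGC, miR-18a-5p, miR-18b-5p and miR-4735-3p, was detected. Whether near-identical relatives such as miR-17-5p, miR-20a-5p and miR-20b-5p bound each other's probes was not tested. Nor was it tested whether miR-106a-5p, which had no probe under its own name, bound the probes of miR-17-5p, from which it differs at 1 base.

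**Figure D3:**
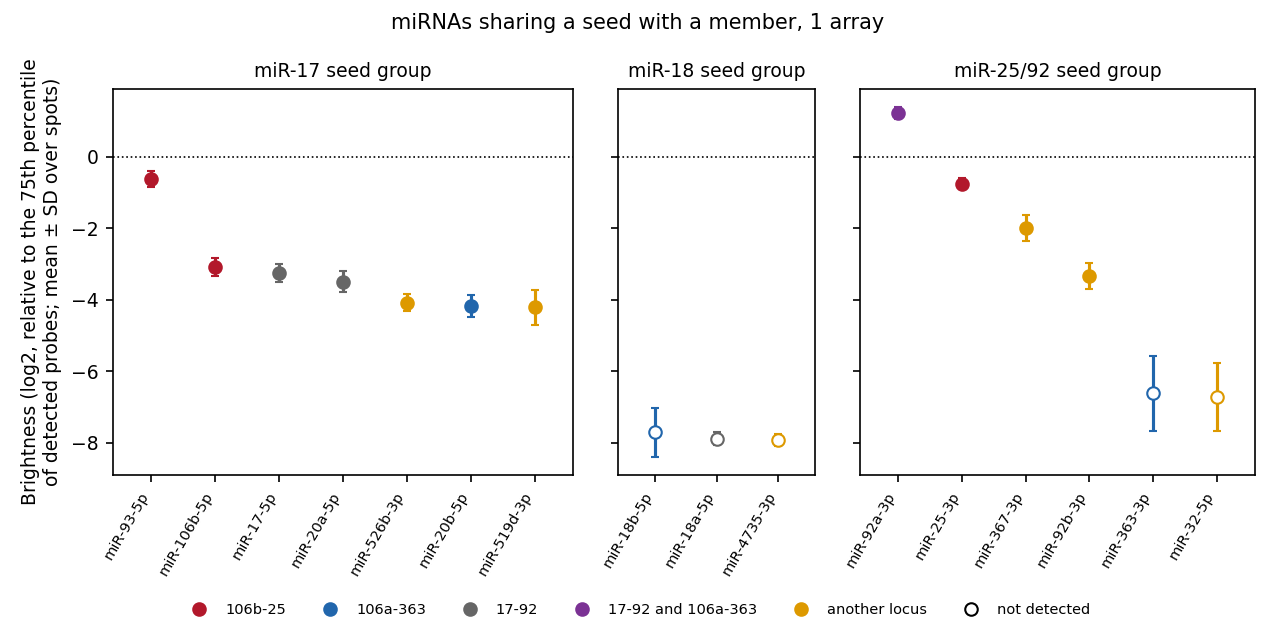
Log2 brightness of the analysed miRNAs that share a seed with a member, on the same relative scale, as mean ± SD over the spots of 1 array. Colors mark the cluster and open circles miRNAs that were not detected. miR-20b-5p stands at -4.17 beside miR-526b-3p at -4.08 and miR-519d-3p at -4.21, and miR-363-3p at -6.62 beside miR-32-5p.

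In the normalized log2 values that the authors deposited for the same array, the miR-106b-25 arms ran from 2.32 to 5.54 and the miR-106a-363 members from 2.32 to 2.39. miR-93-5p stood at 5.54, miR-25-3p at 5.41, miR-106b-3p at 3.77, miR-106b-5p at 3.14 and miR-17-5p at 2.98. The value of miR-20b-5p, 2.39, lay just above the lowest value of the table, 2.32, which the 3 undetected members shared and which is 5 on the linear scale. miR-25-5p was at 2.33. The members thus kept the order of their total signals, in which miR-106b-3p came before miR-106b-5p, and differences among the dimmest members were lost.

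**Figure D4:**
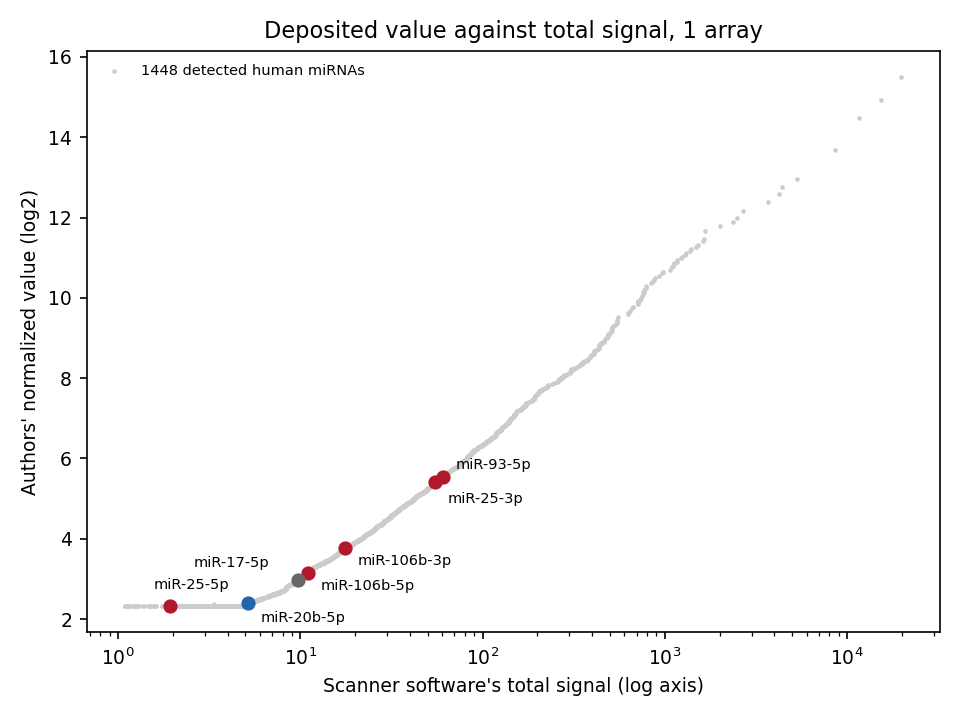
The authors' normalized log2 value against the scanner software's total signal (log axis) for the 1448 detected human miRNAs of the array (grey points), with the detected members and miR-17-5p in color. miR-93-5p and miR-25-3p lie at 5.54 and 5.41. miR-25-5p, at 2.33, lies where the curve is flat, and miR-20b-5p, at 2.39, just above that part.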

How the data were processed

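The miRNA data are those of a single array of DLD-1 cells carrying the negative control plasmid, grouped from its labels. Per the labels and methods, Cy3-labelled material was hybridized and scanned, and the deposited scanner output gives the intensity of every spot (linear scale) after the authors' software, Agilent Feature Extraction 11.0.1.1, removed the local background and set outlier and detection flags. The labels describe ligation of the dye to miRNA, whereas the methods describe labelled cDNA. The authors also deposited log2 values, which the methods call quantile normalized. The set of arrays normalized together was not given in the sources used here, and the centring of these values stays unknown.

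Controls and outlier spots were dropped, and brightness below 1 was set to 1. Log2 values were averaged by probe and then by miRNA, and set against the 75th percentile of 2567 detected probes. A probe entered that percentile when its miRNA was detected and a share of 0.5 or more of its spots lay well above background. The negative control level is the 99th percentile over all 1000 such spots, which came from 7 probes. The members and the lists of relatives and markers were chosen with earlier results of these data known. All members were named, beside miRNAs that share a seed with them and the other arms of the clusters. Array number limits the precision, and no p-value is given.

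Alternatives were tried for the detection criterion, the margin and level of background, the scaling, the summary over probes, outlier spots, the arms that enter a cluster median, the authors' log2 values and the background correction. The last was normexp (limma 3.58.1, R 4.3.3) with an offset of 50, on median spot signals and median local background. Leaving the 29 negative control spots marked as outliers out of the control level was added after the data were examined. Software was Python 3.11.15 with numpy 2.4.6 and pandas 2.3.3, and the summary of spots was tested on simulated data.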

Additional observations from a re-analysis of the deposited data

How the results depend on the processing

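The count of detected members, 6, was 5 when a probe needed 0.5 of its spots well above background, 4 when it needed every spot, and 8 when the criterion was 0.5 of spots positive and significant, with or without outlier spots. miR-363-3p and miR-93-3p entered under that last criterion, and miR-18b-5p did not. The count over the negative controls, 4, was 3 at a 4-fold margin or after normexp, 5 without the brightest control probe, and 4 otherwise. The shares of all human miRNAs under these alternatives were not counted. Whether the members changed relative to the whole array therefore cannot be told. After normexp the cluster medians were -1.69 (miR-106b-25) and -2.29 (miR-106a-363) and their difference 0.61. The offset of 50 adds the same amount to every spot, which compresses dim values. With the percentile taken over all probes the medians were -1.30 and -4.83, and miR-93-5p and miR-25-3p turned to 1.18 and 1.04, since the reference is then dimmer. By the brightest probe the medians were -1.97 and -5.90. By the software's total signal, in which an undetected miRNA is 0.1, the miR-106a-363 median was -9.57 and the difference 7.12. On the authors' values these were -3.54 and 1.13, with the undetected members at a shared lowest value. With the known guide arms alone the miR-106b-25 median was -0.75 and the difference 5.87. Of 60 values for the 9 members and miR-17-5p under these alternatives, 25 moved by no more than the spot SD, 33 kept their sign but moved by more than that, and 2, the ones given above, changed sign. No paired analysis was possible because the data are from 1 array. Of the 25 member probes, 14 had no spot well above background, and these limit what the array can show. The share of such probes over the whole array was not counted. The 9 member probes with every spot well above background had a spot SD of 0.04 to 0.24 on the log2 scale.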

Other observations

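The miR-17-92 cluster, the third paralog, was read arm by arm beside the miR-106a-363 cluster. Of its 10 arms made from chromosome 13 alone, 7 were detected, against 56.8% of all human miRNAs measured. miR-18a-5p and miR-18b-5p, which differ at 1 base, were both not detected, with mean brightness of -1.50 ± 1.95 and -1.51 ± 2.88 (SD over 20 spots each). The opposite arms of the same hairpins, miR-18a-3p and miR-18b-3p, were both detected, with total signals of 7.48 and 6.15, although the 5p arm is the known guide. miR-20a-3p was detected, 15 of its 19 spots being well above background, with a mean of 26.7 ± 6.64, whereas miR-20b-3p had none of 20 and a mean of 0.69 ± 2.91. miR-19a-3p, which shares the seed GUGCAAA with miR-19b-3p, was not detected at 6.48 ± 2.27 (SD over 19 spots), while miR-19b-3p read 94.2 ± 13.9. Of the 19 spots of miR-19a-3p, 17 were nonetheless positive and significant over the local background, and none was well above it. miR-17-3p had a larger total signal than miR-17-5p, 17.7 against 9.67, and miR-106b-3p, at 17.6, likewise a larger one than miR-106b-5p, which ranked 990 of 1448 against 815 for miR-106b-3p. These are values of 1 array and different probes, and no test was made.

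Position on the array was compared for all 9 analysed members, taking each probe's own mean out. Spots in the upper rows minus spots in the lower rows differed on the log2 scale by 0.003 for miR-93-5p, -0.06 for miR-25-3p, -0.13 for miR-106b-5p, 0.01 for miR-106b-3p, 0.04 for miR-20b-5p and -0.40 for miR-25-5p. For the undetected members, whose spots, like those of miR-25-5p, were in part set to 1, it was -0.67 for miR-363-3p, -0.30 for miR-18b-5p and -0.03 for miR-93-3p.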
